A study of Homo sapiens with 6 samples.

Results

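The 40 genes described here make cholesterol and fatty acids or control how much of both a cell makes. They were taken from the deposited table by gene symbol and sort into 7 genes of the mevalonate steps, 11 of the squalene and sterol steps, 5 that regulate the sterol regulatory element-binding proteins (SREBPs), 3 of sterol trafficking, 3 around the liver X receptors (LXRs) and 11 of fatty acid synthesis. The list is not the whole pathway. All 40 were found among the 61806 genes of the table, and all 40 were among the 15870 genes whose mean over the libraries reached 0.5 FPKM (counts scaled to exonic length and to the library total) that were tested.

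Cholesterol synthesis starts from acetyl-CoA, runs through mevalonate to squalene, and ends with a chain of sterol-modifying enzymes. Fatty acid synthesis starts from the same acetyl-CoA, which is carboxylated to malonyl-CoA, built into palmitate and then elongated and desaturated. SREBP2 mainly drives the sterol enzymes and SREBP1 mainly the fatty acid enzymes, while the escort protein SCAP carries both to the Golgi for activation and the INSIG proteins hold them back when sterols are plentiful. The LXRs respond to oxysterols, the oxidised products of cholesterol. Glioblastoma cells are known for a strong demand for both kinds of lipid.

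RNA was sequenced from U87-MG, an established human glioblastoma line that grows as a monolayer. The 3 control libraries carry the label NC and a wild-type genotype, and the other 3 are labelled GRIK1 siRNA with a GRIK1 knockdown genotype. GRIK1 encodes a kainate-type glutamate receptor subunit. The labels number the knockdown libraries 1, 2 and 3 without saying whether these are repeats of a single siRNA or different siRNAs, while the methods of the study list several siRNAs under the same numbering and its text states that siRNA1 was carried into its later experiments. The series text names an shRNA instead. Nothing says whether the libraries of a group came from separate cultures, so p-values measure only the spread between these libraries, which may be technical. The RNA of the target was not lower in the libraries of its knockdown group, but it was near the floor. Its means of 0.233 FPKM in the NC group and 0.34 in the other were under the 0.5 FPKM of tested genes. The study reports an efficient knockdown in U87-MG cells, in measurements other than these libraries. GRIK1 had 18, 9 and 8 counts in NC 1, NC 2 and NC 3 and 15, 20 and 20 in the other group, a difference of 0.12 on the log2(FPKM + 1) scale (p = 0.4 by a two-sided exact permutation test, whose smallest p at this size is 0.1). The second group is therefore called the siRNA-labelled libraries, after its label and not after the level of its target.

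Total counts lay between 11099909 and 14006968. NC library 3 stood apart from the other 5 on the first principal component of all tested genes (59.5% of the variance), and ribosomal protein genes took 8.45% of its counts, while NC 1 and NC 2 had 4.75% and 4.99% and the siRNA-labelled libraries 4.35% to 4.37%. The main results are therefore also given without NC library 3, though not for every gene named. Of 9 astrocytic and glioma markers, VIM and CD44 were abundant, with means of 1012 and 65.7 normalised FPKM in the NC libraries, SLC1A3 had 3.28, and the remaining 6, GFAP, S100B, AQP4, ALDH1L1, NES and SOX2, were under the filter. Of 8 markers of immune, endothelial, epithelial and neural cells, 5 were under the filter. The other 3, CD68, EPCAM and SYT1, went from mean levels of 2.87, 1.24 and 0.408 normalised FPKM in the NC group to 3.65, 1.803 and 0.770 in the other. For 2 of them the groups did not overlap, where 19.4% of all tested genes were higher without overlap. The log2 fold changes of the 3 were 0.35, 0.54 and 0.92, and none passed in either fit. The part of these markers in the results below was not tested.

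Levels are given below as normalised FPKM, the same quantity as FPKM but divided by the library size after TMM scaling, so that libraries and genes can be set side by side. Changes are log2 fold changes, with their standard errors (SE), of the siRNA-labelled libraries over the NC libraries, from the quasi-likelihood test of edgeR on the counts, and a gene is said to have risen or fallen when its p, adjusted over all tested genes, was under 0.05.

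With all 6 libraries, the genes that changed were mostly those of fatty acid synthesis. FADS2, ACACB, ACACA and SCD rose in the siRNA-labelled libraries, by between 1.56-fold and 2.86-fold, and FDPS, in the mevalonate steps, fell to 0.661 of its NC level. In RNA from a whole culture, a changed share of cells and a changed amount per cell cannot be told apart. These 5 were 12.5% of the 40 genes, while 3.09% of all tested genes passed the same threshold. In the direction of a rise it was 4 of 40, against 1.61% of all tested genes. In the direction of a fall it was 1 of 40, against 1.48%. Without NC library 3, 20 of the 40 passed, 13 higher and 7 lower, and the 5 above were among them with the same directions. Of those 20, 8 were fatty acid genes, all higher, and the rest, 5 higher and 7 lower, had other roles. In that fit 35.2% of all tested genes passed, 16.9% higher and 18.3% lower. Leaving out any 1 of the other 5 libraries ended all 5 calls, with 0 of the 40 and 0 of all genes called by edgeR, when 9 to 14 of the 40 had an unadjusted p under 0.05. With a log2 fold change beyond 1 also required, FADS2, ACACB and ACACA remained with all 6 libraries, against 1.41% of all tested genes. DESeq2 called 6 of the 40 as higher and 2 as lower, against 5.43% and 5.14% of all tested genes (10.6% in both directions). To the 5 it added SQLE and FASN as higher and NR1H2 as lower.

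**Figure D1:**
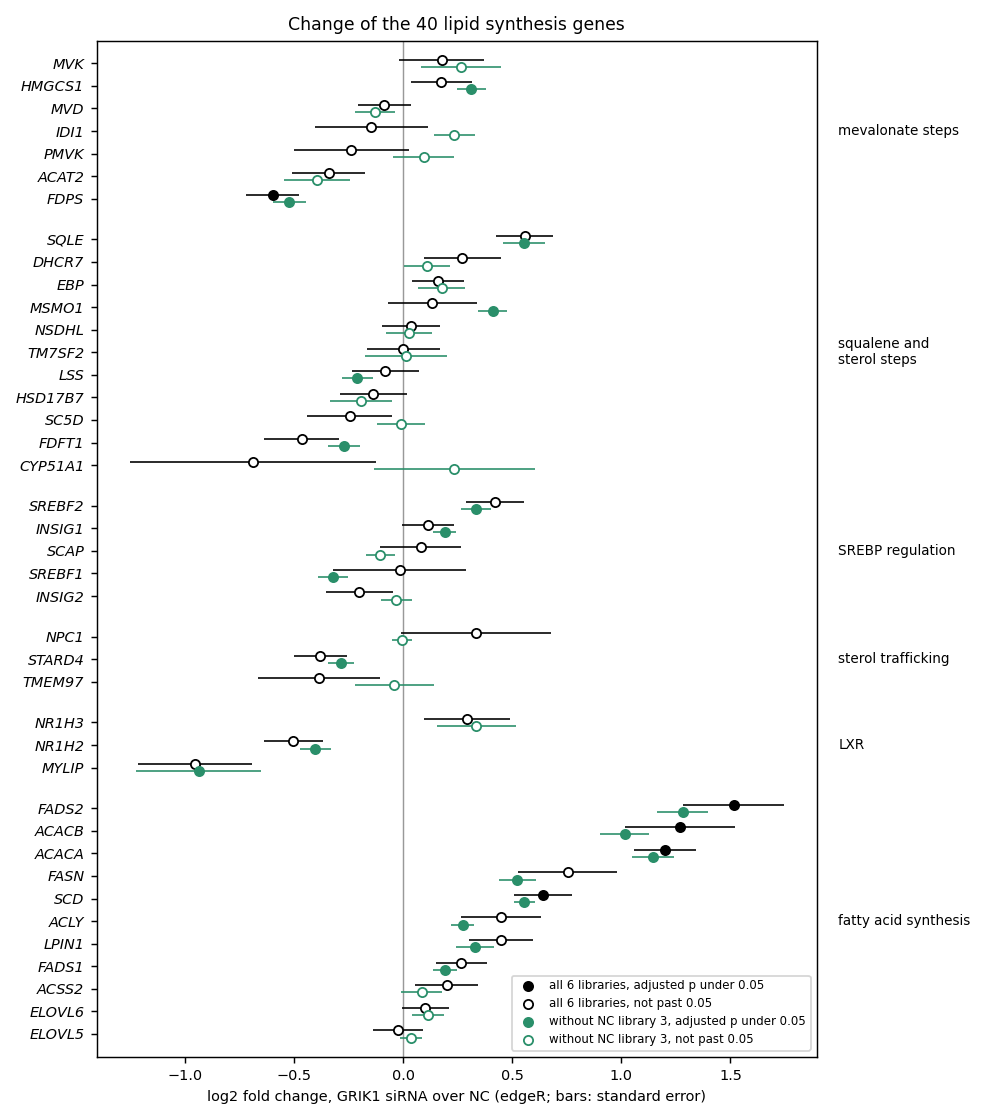
The horizontal axis is the log2 fold change of the siRNA-labelled libraries over the NC libraries and each line is 1 of the 40 genes, sorted by role, with black points for all 6 libraries, green points for the fit without NC library 3, bars for the standard error and filled points for an adjusted p under 0.05. The 5 filled black points are FADS2, ACACB, ACACA and SCD to the right and FDPS to the left, and the largest gap between the fits is that of CYP51A1, followed by IDI1 and TMEM97.

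Malonyl-CoA, the building block of fatty acids, is made by 2 acetyl-CoA carboxylases. ACACA encodes the cytosolic form that feeds synthesis (ENSG00000278540, chromosome 17 from 37084992 to 37406836, minus strand). It had 2.13, 1.63 and 1.67 normalised FPKM in NC 1, NC 2 and NC 3, as against 4.16, 4.28 and 4.03 in the siRNA-labelled libraries. The 3 NC libraries lay close together, NC library 3 among them, and every library of the other group was higher. The log2 fold change was 1.20 (SE 0.14, edgeR adjusted p = 0.0205), and 1.14 without NC library 3.

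ACACB encodes the form on the mitochondrial outer membrane, whose product restrains fatty acid oxidation (ENSG00000076555, chromosome 12 from 109116587 to 109268226, plus strand). Its levels were 1.00, 0.879 and 0.488 normalised FPKM in NC 1, NC 2 and NC 3, against 1.98, 1.97 and 1.75. NC library 3 was the lowest of the 6. The log2 fold change was 1.27 (SE 0.25, edgeR adjusted p = 0.0450) with all libraries and 1.01 without NC library 3. UNG overlaps ACACB on the same strand, with 457 to 777 counts per library against 88 to 370 for ACACB, and its own log2 fold change was -0.48. Per length, ACACA was the more abundant carboxylase in each library. The ratio of ACACA to ACACB was 2.13, 1.86 and 3.42 in NC 1, NC 2 and NC 3, as against 2.10, 2.17 and 2.30 in the others, so it overlapped between the groups.

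FADS2, the delta-6 desaturase that starts the path to long polyunsaturated fatty acids, had the largest change of the 40 genes (ENSG00000134824, chromosome 11 from 61792980 to 61867354, plus strand). It went from 0.870, 0.885 and 0.488 normalised FPKM to 2.02, 2.14 and 2.23. The groups did not overlap, with NC library 3 again at the bottom. Its log2 fold change was 1.51 (SE 0.23, edgeR adjusted p = 0.0304), or 1.28 without NC library 3. FADS1, the delta-5 desaturase that acts further along the same path, is its neighbour on the opposite strand and overlaps it in the table. FADS1 was at 8.18, 8.11 and 6.87 in the NC group, as against 9.40, 9.31 and 9.15 in the others, a log2 fold change of 0.27 that did not pass (edgeR adjusted p = 0.207; 0.0126 without NC library 3). The ratio of FADS1 to FADS2 was therefore 9.41, 9.17 and 14.1 in the NC group, as against 4.66, 4.34 and 4.10 in the siRNA-labelled libraries. FEN1 also lies inside the span of FADS2 on the same strand, and its log2 fold change was -0.39 (edgeR adjusted p = 0.293). A gene without a symbol, ENSG00000289268, overlaps FADS2 on the opposite strand, with 42, 39 and 37 counts in NC 1, NC 2 and NC 3 and 91, 64 and 68 in the siRNA-labelled libraries. The log2 fold change of this gene was 0.74 (edgeR adjusted p = 0.113), and 0.65 without NC library 3 (adjusted p = 0.0310).

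SCD, the stearoyl-CoA desaturase that makes monounsaturated fatty acids, was the most abundant of the 40 (ENSG00000099194, chromosome 10 from 100347233 to 100364826, plus strand). It stood at 62.7, 61.4 and 51.0 normalised FPKM in NC 1, NC 2 and NC 3, and at 89.5, 93.2 and 90.6 in the siRNA-labelled libraries. Its log2 fold change was 0.64 (SE 0.13), with an edgeR adjusted p of 0.0497, just inside the threshold. Without NC library 3 it was 0.56 (edgeR adjusted p = 1.02e-07). On the other side of it, the nearest of the 40 genes was SQLE, with an edgeR adjusted p of 0.0633.

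The remaining 7 genes of this group did not pass with all 6 libraries, and the groups did not overlap for 5 of them, all higher, where 19.4% of all tested genes were higher without overlap. FASN, the synthase that builds palmitate, had 3.64, 3.32 and 1.94 normalised FPKM against 5.33, 4.78 and 4.90 (log2 fold change 0.75, edgeR adjusted p = 0.107; 0.52 with adjusted p = 0.000119 without NC library 3). ACLY, which makes cytosolic acetyl-CoA from citrate, had 33.1, 32.1 and 21.2 against 41.8, 37.0 and 39.1 (log2 fold change 0.45, edgeR adjusted p = 0.184). LPIN1, a phosphatidate phosphatase of glycerolipid assembly, had 2.55, 2.38 and 1.88 against 3.18, 2.94 and 3.17 (log2 fold change 0.45, edgeR adjusted p = 0.124). All 3 had their lowest value in NC library 3, and all 3 passed as higher without it. ACSS2, which makes acetyl-CoA from acetate, and the elongases ELOVL5 and ELOVL6 had log2 fold changes of 0.20, -0.02 and 0.10 and did not pass in either fit. ELOVL5, which extends polyunsaturated chains, had 40.5, 43.1 and 46.9 normalised FPKM against 42.5, 43.5 and 42.4. ELOVL6, which extends palmitate, had 7.04, 6.33 and 6.82 against 7.14, 7.17 and 7.36. The ratio of ELOVL5 to ELOVL6 lay between 5.75 and 6.88 in the 6 libraries.

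Of the 11 fatty acid genes, 10 had a log2 fold change above 0 and the median was 0.45, beside -0.02 over all tested genes. Rises were called for 4 of the 11, against 1.61% of all tested genes. Without NC library 3 they were called for 8 of the 11, against 16.9%, and the median was 0.33. Summed over the 11 genes, the level was 166.5, 165.4 and 143.2 normalised FPKM in NC 1, NC 2 and NC 3, as against 212.5, 211.5 and 209.9 in the others. Leaving SCD out of the sum, it was 103.8, 104.0 and 92.1 against 123.0, 118.3 and 119.3, so the groups stayed apart without the most abundant gene.

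**Figure D2:**
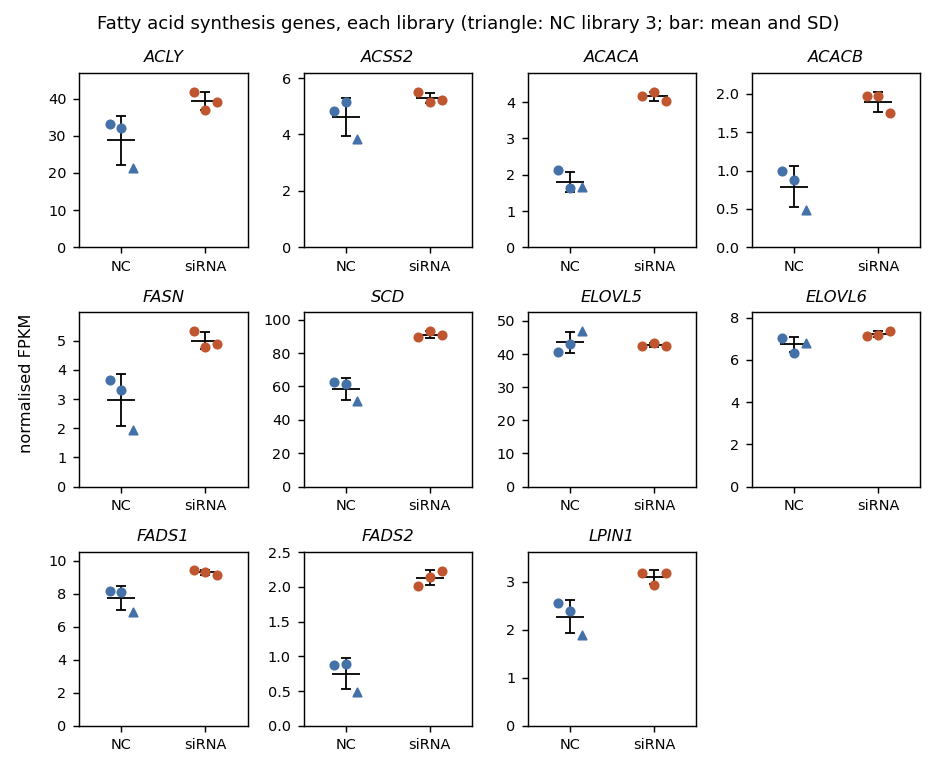
Each panel gives the normalised FPKM of 1 fatty acid synthesis gene on a vertical axis that starts at 0, with NC libraries in blue (NC library 3 as a triangle), siRNA-labelled libraries in orange, and the mean and SD of each group (n = 3) in black. For ACACA, ACACB, FADS2 and SCD every orange point lies above every blue point, whereas the groups overlap for ELOVL5 and ACSS2.

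The promoters of the 5 genes that changed are printed as the RefSeq table gives them on GRCh38.p14, 250 bases up to the transcription start, 5' to 3' on the gene's strand. Capitals mark matches on either strand to CCAAT (the CCAAT box, bound by NF-Y) and GGGCGG (the GC box, bound by Sp1), factors known to act beside SREBPs. The windows are chr11:61815953-61816202 on the plus strand for FADS2, which lies inside the longer span that the table gives this gene, chr17:37406837-37407086 on the minus strand for ACACA, chr12:109116337-109116586 on the plus strand for ACACB, chr10:100346983-100347232 on the plus strand for SCD and chr1:155308616-155308865 on the plus strand for FDPS, whose span in the table begins inside this window.
FADS2: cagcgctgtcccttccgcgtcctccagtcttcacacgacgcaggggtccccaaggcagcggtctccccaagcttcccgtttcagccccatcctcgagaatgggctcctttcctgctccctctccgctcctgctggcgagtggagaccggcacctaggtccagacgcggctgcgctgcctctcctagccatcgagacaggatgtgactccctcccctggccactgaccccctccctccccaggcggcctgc
ACACA: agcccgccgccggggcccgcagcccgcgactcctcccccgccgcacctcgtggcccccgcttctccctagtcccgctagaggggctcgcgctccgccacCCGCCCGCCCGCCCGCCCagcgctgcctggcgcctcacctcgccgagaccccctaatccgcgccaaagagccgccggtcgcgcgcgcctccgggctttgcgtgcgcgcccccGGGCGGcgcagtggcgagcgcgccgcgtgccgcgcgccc
ACACB: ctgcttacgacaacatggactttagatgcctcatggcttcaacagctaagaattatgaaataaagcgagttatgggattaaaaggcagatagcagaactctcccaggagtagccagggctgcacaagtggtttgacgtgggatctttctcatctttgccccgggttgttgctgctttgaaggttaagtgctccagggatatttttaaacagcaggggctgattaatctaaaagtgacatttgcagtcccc
SCD: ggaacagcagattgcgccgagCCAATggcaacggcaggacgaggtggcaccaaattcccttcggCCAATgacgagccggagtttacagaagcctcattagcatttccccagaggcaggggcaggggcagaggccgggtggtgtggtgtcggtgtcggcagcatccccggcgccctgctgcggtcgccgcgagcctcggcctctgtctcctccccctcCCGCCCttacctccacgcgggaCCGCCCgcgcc
FDPS: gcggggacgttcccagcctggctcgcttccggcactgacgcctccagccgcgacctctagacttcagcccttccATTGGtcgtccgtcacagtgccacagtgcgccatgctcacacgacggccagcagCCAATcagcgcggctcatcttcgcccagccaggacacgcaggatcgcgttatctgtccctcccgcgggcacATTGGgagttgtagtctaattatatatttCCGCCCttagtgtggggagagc
FADS2 and ACACB held neither motif in this window, ACACA held GC boxes alone, 4 of which overlap each other in a repeat, and SCD and FDPS held both. Of the 40 genes, 36 have a promoter in the table. CCAAT was found in 21 of the 36 (58.3%), against 35.1% of the 9947 tested genes with a promoter there, and GGGCGG in 31 (86.1%), against 66.6%. A sterol response element of the form TCACNCCAC was found in 1 of the 36, the promoter of SREBF2, against 0.945% of the tested genes. The palindromic E-box CACGTG was found in 4 of 36 (11.1%), against 8.99%. The LXR-type DR4 repeat, 2 copies of AGGTCA with 4 bases between, was found in 0 of 36 and in 0 of the 9947. None of these 3 further motifs matched the 5 printed windows, and no 2 of the 5 motifs contain one another. Only exact matches to these letters within the window were searched. Sites of another form or further away would be missed, so a promoter without a match may still hold such a site.

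Among the 18 mevalonate and sterol enzymes the calls were near the background. Of the 18, only FDPS passed with all 6 libraries (5.56%, against 3.09% of all tested genes). A log2 fold change above 0 was held by 8 of the 18, where 7712 of the 15870 tested genes were above 0, and the median was -0.08. In the fit without NC library 3, 3 passed as higher and 3 as lower, against 16.9% and 18.3% of all tested genes, and the median was 0.06. Those higher without NC library 3 were HMGCS1, SQLE and MSMO1, and those lower were FDPS, FDFT1 and LSS.

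At the start of the pathway, ACAT2, which joins 2 acetyl-CoA, had 4.15, 3.61 and 3.44 normalised FPKM in NC 1, NC 2 and NC 3, as against 2.59, 3.04 and 3.20 in the siRNA-labelled libraries. The groups did not overlap, but neither fit passed (log2 fold change -0.34, edgeR adjusted p = 0.243). SOD2, which overlaps ACAT2 on the opposite strand, had 17940 to 55476 counts against 87 to 123 for ACAT2, and fell (log2 fold change -1.18, edgeR adjusted p = 0.0444). HMGCS1, the next enzyme, had 7.53, 7.36 and 9.65 against 8.99, 9.31 and 9.40, so that NC library 3 was the highest of the 6. Its log2 fold change was 0.17 with all libraries (edgeR adjusted p = 0.451) and 0.31 without NC library 3 (adjusted p = 0.00144). The kinases MVK and PMVK and the decarboxylase MVD, which turn mevalonate into isopentenyl pyrophosphate, had log2 fold changes of 0.18, -0.24 and -0.09 and passed in neither fit. PMVK had the highest mean level of the mevalonate genes, with 13.4, 17.7 and 27.5 normalised FPKM in the NC group, as against 19.4, 14.8 and 15.6 in the others. IDI1, the isomerase after them, had 6.68, 7.28 and 13.3 against 8.80, 7.64 and 8.18. For IDI1 the direction depended on NC library 3, with a log2 fold change of -0.15 with it and 0.24 without it (edgeR adjusted p = 0.0563).

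FDPS, the farnesyl pyrophosphate synthase from which sterols and protein prenyl groups both branch, was the 1 enzyme of the 18 that changed (ENSG00000160752, chromosome 1 from 155308748 to 155320666, plus strand). It had 13.7, 12.9 and 15.4 normalised FPKM in NC 1, NC 2 and NC 3, as against 8.90, 9.51 and 9.34 in the siRNA-labelled libraries. The lowest NC library was above the highest of the other group. FDPS fell by 0.60 on the log2 scale (SE 0.12, edgeR adjusted p = 0.0468), and by 0.52 without NC library 3 (adjusted p = 5.27e-05). Its 8 named pseudogenes held at most 3 counts in any library. RUSC1-AS1 overlaps FDPS on the opposite strand with 64 to 165 counts, and whether the counting used strand is not given in the sources used here.

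The next 2 enzymes had log2 fold changes of opposite sign, and neither passed with all 6 libraries. FDFT1, the squalene synthase, had 10.7, 12.1 and 16.3 normalised FPKM against 8.92, 9.61 and 9.81, a log2 fold change of -0.46 (edgeR adjusted p = 0.154) and of -0.27 without NC library 3 (adjusted p = 0.00933). SQLE, the squalene epoxidase and a rate-controlling step, had 6.91, 7.88 and 7.32 against 10.4, 12.1 and 9.998. No library of the groups overlapped, and the 3 NC libraries lay close together. SQLE had a log2 fold change of 0.56 (SE 0.13) that missed the threshold with all libraries (edgeR adjusted p = 0.0633) and was 0.55 without NC library 3 (adjusted p = 0.000245).

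Among the enzymes from LSS to DHCR7, which close the sterol rings and trim lanosterol to cholesterol, none passed with all 6 libraries in edgeR. An unadjusted p under 0.05 was held by 2 of the 11 squalene and sterol genes, FDFT1 and SQLE, against 25.1% of all tested genes, and DESeq2 called SQLE alone. MSMO1, the methylsterol oxidase, was the most abundant of the sterol enzymes, with 18.1, 17.5 and 28.9 normalised FPKM against 22.7, 24.0 and 24.1. NC library 3 was the highest of the 6 for this gene, and without it MSMO1 had a log2 fold change of 0.41 (edgeR adjusted p = 0.000117) in place of 0.13. LSS, the lanosterol synthase, had 12.5, 12.1 and 9.17 against 11.7, 9.90 and 10.2, and a log2 fold change of -0.21 without NC library 3 (edgeR adjusted p = 0.0269) in place of -0.08. CYP51A1, the lanosterol demethylase, was the lowest of the 40, with 16, 19 and 71 counts in NC 1, NC 2 and NC 3, as against 28, 28 and 16 in the others. Its log2 fold change was -0.69 (SE 0.57) with all libraries and 0.24 (SE 0.37) without NC library 3, so its direction was not settled. AKAP9 overlaps CYP51A1 on the opposite strand with 571 to 1794 counts, and it rose (log2 fold change 1.02, edgeR adjusted p = 0.0437). The other 6, TM7SF2, NSDHL, HSD17B7, EBP, SC5D and DHCR7, had log2 fold changes between -0.25 and 0.27 and did not pass in either fit.

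**Figure D3:**
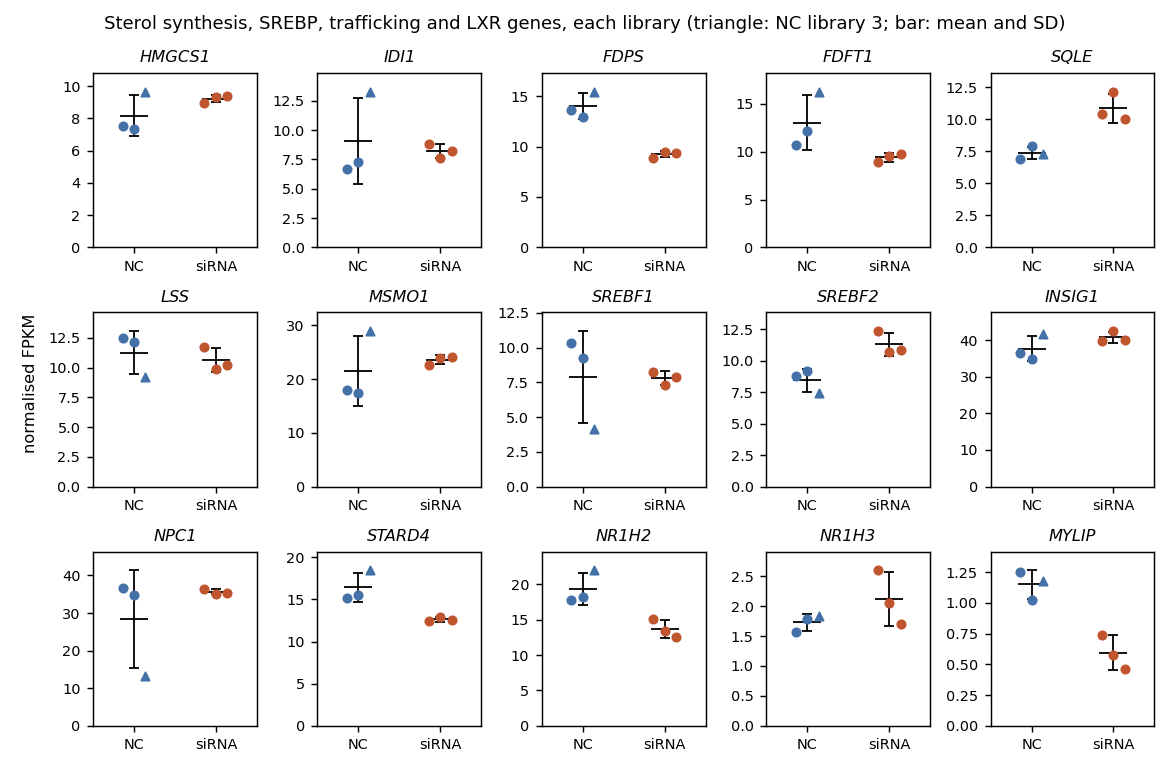
Each panel gives the normalised FPKM of 1 gene of sterol synthesis, SREBP control, trafficking or the LXRs on a vertical axis that starts at 0, with NC libraries in blue (NC library 3 as a triangle), siRNA-labelled libraries in orange, and the mean and SD of each group (n = 3) in black. NC library 3 lies far from the other blue points for NPC1, SREBF1, IDI1 and MSMO1 and close to them for SQLE and MYLIP.

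Of the 5 genes of SREBP control, none passed with all 6 libraries in edgeR or DESeq2, 1 had an unadjusted p under 0.05 in edgeR, and the directions without NC library 3 were split. SREBF2, which encodes SREBP2, had 8.81, 9.17 and 7.41 normalised FPKM against 12.4, 10.7 and 10.9, without overlap, and a log2 fold change of 0.42 (edgeR adjusted p = 0.116; 0.33 with adjusted p = 0.00116 without NC library 3). SREBF1, which encodes SREBP1, had 10.3, 9.25 and 4.15 against 8.23, 7.29 and 7.92. NC library 3 held less than any other library, and the log2 fold change of SREBF1 was -0.02 with it and -0.32 without it (edgeR adjusted p = 0.00156). The ratio of SREBF1 to SREBF2 was 1.17, 1.01 and 0.560 in NC 1, NC 2 and NC 3, as against 0.665, 0.680 and 0.728 in the others. NC libraries 1 and 2 thus lay above the siRNA-labelled libraries, and NC library 3 below them. RAI1 overlaps SREBF1 on the opposite strand.

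INSIG1, itself a classical SREBP target, was the most abundant of the 5, with 36.6, 34.9 and 41.6 normalised FPKM against 39.8, 42.5 and 40.1. Its log2 fold change was 0.11 (edgeR adjusted p = 0.568) and 0.19 without NC library 3 (adjusted p = 0.00876). INSIG2 had 12.3, 12.6 and 17.0 against 11.96, 12.3 and 12.3 and passed in neither fit. The ratio of INSIG1 to INSIG2 was 2.98, 2.76 and 2.44 in the NC group, as against 3.33, 3.47 and 3.25 in the siRNA-labelled libraries, which did not overlap. SCAP had log2 fold changes of 0.08 and, without NC library 3, -0.10, and passed in neither fit.

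Of the 6 genes of sterol trafficking and the LXRs, none passed with all 6 libraries in edgeR. A log2 fold change below 0 was held by 4 of these 6, where 7712 of the 15870 tested genes were above 0. An unadjusted p under 0.05 was held by 1 of the 3 trafficking genes and 2 of the 3 LXR genes, against 25.1% of all tested genes, and DESeq2 called NR1H2, where it called 10.6% of all. STARD4, a carrier of cholesterol between membranes, had 15.2, 15.6 and 18.5 normalised FPKM against 12.4, 12.9 and 12.5 (log2 fold change -0.38, edgeR adjusted p = 0.120; -0.28 with adjusted p = 0.000976 without NC library 3). NPC1, which exports cholesterol from lysosomes, had 36.8, 34.9 and 13.3 against 36.5, 35.2 and 35.4. Apart from NC library 3 the values lay between 34.9 and 36.8, and the log2 fold change of NPC1 was 0.33 with that library and -0.01 without it. TMEM97, a sigma receptor that binds NPC1, had log2 fold changes of -0.39 and, without NC library 3, -0.04.

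NR1H2, which encodes LXR beta, had 17.9, 18.3 and 22.0 normalised FPKM against 15.1, 13.4 and 12.6, a log2 fold change of -0.50 (edgeR adjusted p = 0.0877; -0.40 with adjusted p = 0.000239 without NC library 3). NR1H3, which encodes LXR alpha, had 1.57, 1.78 and 1.83 against 2.60, 2.06 and 1.70 and passed in neither fit. The ratio of NR1H2 to NR1H3 was 11.4, 10.3 and 12.04 in the NC group, as against 5.81, 6.48 and 7.395 in the others. MYLIP, an LXR-induced ubiquitin ligase that removes lipoprotein receptors, had 43, 35 and 45 counts in NC 1, NC 2 and NC 3, as against 29, 23 and 19 in the siRNA-labelled libraries, or 1.25, 1.02 and 1.18 normalised FPKM against 0.742, 0.578 and 0.458. Its log2 fold change of -0.95 was the lowest of the 40 genes (SE 0.26, edgeR adjusted p = 0.0902) and was -0.94 without NC library 3 (adjusted p = 0.0170). ABCA1, from the list of sterol uptake, storage and efflux read below, went the other way. It had 47.9, 46.7 and 23.2 normalised FPKM in NC 1, NC 2 and NC 3, as against 68.6, 69.4 and 68.3 in the others. The log2 fold change of ABCA1 was 0.81 (edgeR adjusted p = 0.129), and 0.54 without NC library 3 (adjusted p = 1.25e-07).

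**Figure D4:**
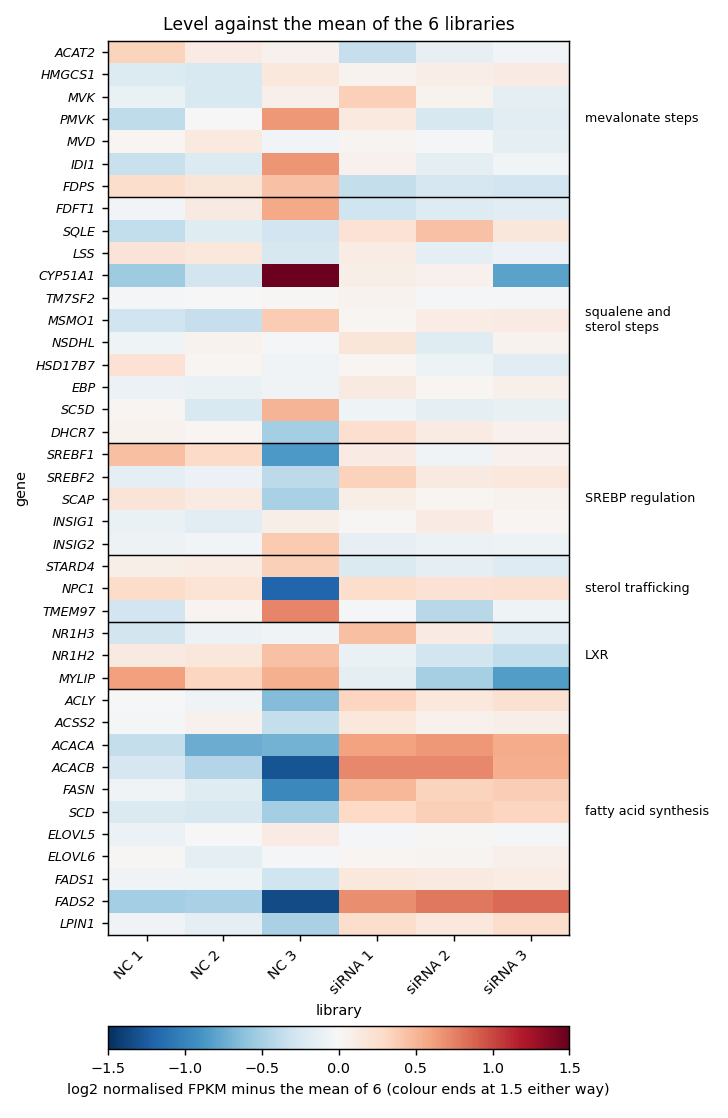
Each row is 1 of the 40 genes, each column 1 library, and the colour is the log2 normalised FPKM minus the mean over the 6 libraries, blue below that mean and red above it. The fatty acid rows at the bottom turn from blue in the NC columns to red in the siRNA columns for ACACA, ACACB, FASN, SCD and FADS2, and the NC 3 column differs from NC 1 and NC 2 in many rows, most for CYP51A1 and NPC1.

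For 19 of the 40 genes (47.5%) the groups did not overlap, 13 higher and 6 lower in the siRNA-labelled libraries, where 38.5% of all tested genes did not overlap, 19.4% higher and 19.0% lower. Without NC library 3 it was 27 of the 40 (67.5%), against 56.5%. NC library 3 was the lowest of the 6 libraries for 14 of the 40 genes and the highest for 13. Of the 10 genes with an exonic size of at least 8000 bases, to which ACACA, ACACB and FADS2 belong, the median log2 fold change was 0.39, against -0.01 for the other 30. Over all tested genes these medians were 0.09 and -0.05. Of the 10 longer genes 3 passed, and of the other 30 it was 2. Among all tested genes, 4.60% of the longer and 2.73% of the others passed, 3.46% and 1.16% as higher. The Spearman correlation of exonic size with the log2 fold change was 0.54 for the 40 genes and -0.009 over all tested genes. NC library 3 was below NC libraries 1 and 2 by a median of 0.62 on the log2 scale in the 10 longer genes and above them by 0.05 in the other 30. Over all tested genes, the medians of NC library 3 over NC libraries 1 and 2 were -0.12 in longer genes and -0.01 in the others. For the 40 genes, the medians without NC library 3 were 0.30 in the longer and 0.06 in the other genes. What part exonic size or the state of that library had in the changes was not tested.

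**Figure D5:**
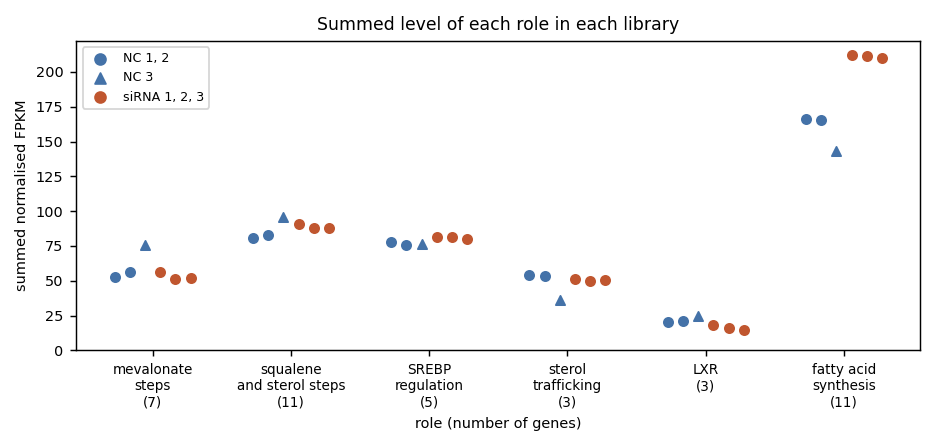
The vertical axis, which starts at 0, is the summed normalised FPKM of the genes of each role, with 1 point per library, NC libraries in blue (NC library 3 as a triangle) and siRNA-labelled libraries in orange. The fatty acid sum lies between 209.9 and 212.5 in the orange points and between 143.2 and 166.5 in the blue ones, while the mevalonate sum of NC library 3, at 76.0, lies above all other libraries.

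Summed over the mevalonate genes, the level was 52.4, 56.2 and 76.0 normalised FPKM in NC 1, NC 2 and NC 3, as against 56.0, 51.1 and 52.0 in the others. Over the squalene and sterol genes it was 80.7, 82.8 and 95.5 against 90.8, 87.6 and 88.2. Both sums overlapped between the groups, with NC library 3 on top. The sum of the LXR genes was 20.7, 21.1 and 25.01 against 18.4, 15.99 and 14.7, and that of the SREBP genes 77.9, 75.3 and 76.3 against 81.5, 81.5 and 80.1. These last sums did not overlap.

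The neighbouring steps of lipid metabolism were read from further lists. Of 13 genes that process or degrade SREBPs, 1 rose, against 1.61% of all tested genes (5 higher and 1 lower without NC library 3, against 16.9% and 18.3%). It was SEC24A, a coat protein of the vesicles that carry SCAP out of the endoplasmic reticulum, with 6.13 ± 0.211 normalised FPKM in the NC group, as against 11.8 ± 0.725 in the others (SD, n = 3 each; log2 fold change 0.95, edgeR adjusted p = 0.0205). None of the 14 tested genes of sterol uptake, storage and efflux passed in edgeR. Of these 14, 5 had an unadjusted p under 0.05 and DESeq2 called 4, against 25.1% and 10.6% of all tested genes. None of the 15 of the isoprenoid branch passed (4 and 1 in the same order). Median log2 fold changes were 0.07 and -0.14. Without NC library 3, 5 of the 14 passed as higher and 2 as lower, against 16.9% and 18.3% of all tested genes. For the isoprenoid branch it was 1 and 2 of the 15. None of the 21 tested genes of fatty acid elongation, activation and supply passed with all 6 libraries in edgeR. Of these, 5 had an unadjusted p under 0.05 and DESeq2 called 4, against 25.1% and 10.6% of all tested genes. Their median was -0.11 with 5 above 0, where 7712 of the 15870 tested genes were above 0. Of these 21, 2 passed as higher and 7 as lower once NC library 3 was left out, against 16.9% and 18.3% of all tested genes.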

How the data were processed

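The authors deposited 1 table for the 6 libraries, with whole-number counts per gene, not normalized, and FPKM values made from them. Each FPKM value (100%) equals the count divided by exonic size and library total, within rounding. The submitters' processing notes name cutadapt 1.9.1, HISAT2, HTSeq and GRCh38, without roles; the strand setting is not given in the sources used here. No column was left unassigned.

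Counts of genes averaging 0.5 FPKM or more were tested with edgeR 4.0.16 in R 4.3.3 (quasi-likelihood, TMM, Benjamini-Hochberg over 15870 genes, no covariate). Standard errors are the log2 fold change over the root of F. On simulated counts edgeR recovered 200 of 200 changed genes with 5 false calls. The simulation gave all genes the same spread, smaller than that of the 6 libraries, and held no library standing apart. Its changes were large and lay in well-counted genes. It thus checks the code, and not the power or the false calls in these data. Alternatives used DESeq2 1.42.0, limma 3.58.1 (limma-trend, voom with sample weights), other filters, scaling and a replicate block. The exact permutation test used scipy 1.17.1.

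The 40 genes and the further lists were chosen with earlier results of these data known, including that NC library 3 stands apart. All 40 genes are named. Values in every library are given for those that passed, those that passed without NC library 3 with a change of at least 0.5, the pairs compared and the most abundant gene of each role, and for others the account turned on, chosen after their values were seen. Of the further lists, genes that passed are named, as is ABCA1, chosen after its values were seen. Promoters came from the RefSeq table.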

Additional observations from a re-analysis of the deposited data

How the results depend on the processing

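ACACA, ACACB, FADS2 and SCD kept log2 fold changes above 0, and FDPS one below 0, under all 16 alternatives, with ranges of 0.94 to 1.33, 0.75 to 1.48, 0.89 to 1.65, 0.52 to 0.73 and -0.65 to -0.47. Their calls were less stable. Leaving out 1 library gave between 0 and 13 of the 40 genes higher and between 0 and 7 lower, and over all genes between 0 and 2682 higher and between 0 and 2909 lower. The highest counts came without NC library 3, and edgeR called 0 genes without any 1 of the other 5, when 9 to 14 of the 40 and 2238 to 4434 of all genes had an unadjusted p under 0.05 and the 5 genes kept their direction. The common dispersion of edgeR was 0.0391 over the 6 libraries and fell to 0.00298 when NC library 3 was left out.

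Members higher and lower numbered 6 and 2 in DESeq2, 2 and 1 in limma-trend on log2(FPKM + 1), 1 and 0 on log2(FPKM + 0.1), 13 and 7 with voom sample weights, and 3 and 0 with an absolute log2 fold change over 1. Chosen after the data were seen, DESeq2 without NC library 3 gave 13 and 5, and no filter without NC library 3 gave 12 and 7. For all genes, those numbers were 255 and 235 in the reported fit, 727 and 676 without a filter, 861 and 815 in DESeq2, 267 and 140 and then 175 and 105 in the limma-trend fits, 3009 and 3318 with voom weights, 138 and 86 with the fold threshold, 2062 and 2148 in DESeq2 without NC library 3, and 2527 and 3258 without a filter or NC library 3. With the replicate number as a block, edgeR called 0 members and 0 of all genes in either direction, with 14 members and 3324 genes at an unadjusted p under 0.05. Deviations of same-numbered libraries correlated at -0.07, 0.04 and -0.04, so the numbers were not taken as pairs. The cause of these differences was not tested.

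Some members turned in sign, CYP51A1 (-0.69 as reported) and NPC1 (0.33) among them. Without NC library 3 in DESeq2 this held for PMVK (0.10), IDI1 (0.24), CYP51A1 (0.24), SCAP (-0.10), NPC1 (-0.0032) and ELOVL5 (0.037), and without filter or NC library 3 for PMVK (0.064), IDI1 (0.20), CYP51A1 (0.20), TM7SF2 (-0.018), NSDHL (-0.0030), SCAP (-0.14), NPC1 (-0.036) and ELOVL5 (0.0040). With voom weights it held for IDI1 (0.18), CYP51A1 (0.019), TM7SF2 (-0.0092), NSDHL (-0.029), SC5D (0.015), SCAP (-0.094) and ELOVL5 (0.019). In limma-trend on log2(FPKM + 1) it held for IDI1 (0.0054), LSS (0.011), SREBF1 (0.14) and ELOVL5 (0.064), and on log2(FPKM + 0.1) for MVD (7.24e-05), IDI1 (0.0097), LSS (0.013), SREBF1 (0.17) and ELOVL5 (0.065). At a mean of at least 1 FPKM it held for SREBF1 (0.0022) and ELOVL5 (0.00090), without a filter for TM7SF2 (-0.025), and with the block for SREBF1 (0.078). Leaving out 1 library gave -1.01 to 0.24 for CYP51A1, -0.071 to 0.035 for ELOVL5, -0.32 to 0.24 for IDI1, -0.0051 to 0.57 for NPC1, -0.045 to 0.13 for NSDHL, -0.44 to 0.095 for PMVK, -0.10 to 0.21 for SCAP, -0.32 to 0.23 for SREBF1 and -0.022 to 0.019 for TM7SF2. GRIK1 stayed between 0.06 and 0.21 higher when 1 library was left out, and was 0.47 higher with a pseudocount of 0.1.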

Other observations

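In the further lists of glycerolipid assembly and lipid breakdown, the few genes that passed with all 6 libraries fell. Of 11 tested genes of glycerolipid assembly and droplets, 2 fell in the siRNA-labelled libraries, against 1.48% of all tested genes. AGPAT1, an acyltransferase of phosphatidic acid synthesis, went from 14.5 ± 0.329 to 9.76 ± 0.568 normalised FPKM (SD, n = 3 each; log2 fold change -0.57, edgeR adjusted p = 0.0444). MGLL, which releases fatty acids from monoacylglycerol, went from 13.1 ± 0.683 to 8.95 ± 0.322 (log2 fold change -0.55, edgeR adjusted p = 0.0449). Both also passed without NC library 3. In that fit 2 of the 11 passed as higher and 5 as lower, against 16.9% and 18.3% of all tested genes. The median log2 fold change of the 11 was -0.07 in both fits.

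Of 11 genes of fatty acid oxidation, 1 fell, against the same 1.48%. It was PPARGC1A, a coactivator of mitochondrial and oxidative genes, from 1.18 ± 0.0452 to 0.501 ± 0.0691 normalised FPKM (log2 fold change -1.23, edgeR adjusted p = 0.0261). The other 10, CPT1A among them at 21.8 ± 6.16 against 21.3 ± 0.720, did not pass with all 6 libraries. Without NC library 3, 1 of the 11 passed as higher and 3 as lower, against 16.9% and 18.3% of all tested genes. None of the 6 tested AMPK subunits passed with all libraries in edgeR. Of these 6, 1 had an unadjusted p under 0.05 and DESeq2 called 1, against 25.1% and 10.6% of all tested genes. Without NC library 3, 2 of these 6 passed as higher and 1 as lower, against 16.9% and 18.3% of all tested genes. SLC1A3, a glutamate transporter from the marker list, fell from 3.28 ± 0.282 to 2.04 ± 0.0878 (log2 fold change -0.68, edgeR adjusted p = 0.0378). The astrocytic and glioma markers did not share a direction. VIM and CD44 had log2 fold changes of -0.02 and -0.19 and did not pass with all 6 libraries. GFAP, under the filter and not tested, had 13, 11 and 8 counts in NC 1, NC 2 and NC 3, as against 39, 36 and 38.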
